A study of Mus musculus with 15 samples.

Results

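Regions of H3K4me1 that were listed in Pax6 knockdown (KD) lens cells and met no H3K4me1 region of the control cells are described here. αTN4 is a mouse lens epithelial cell line transformed with SV40 T antigen, and the compared cells carried either a control shRNA or an shRNA against Pax6, each as a stably transduced population. The lists came from ChIP-seq, with H3K4me1, H3K4me2 and H3K4me3 mapped in both conditions, RNA polymerase II (Pol2) and Pax6 mapped in control cells, and H3K4me2 mapped in whole lens of newborn CD-1 mice at postnatal day 1. Each condition and mark had 1 list, so no difference between the conditions could be set against a spread between replicates, and no p-value is given. A KD-only island is an H3K4me1 island of the Pax6 KD list that shares not even 1 bp with an island of the control list. Of 18417 Pax6 KD islands, 1277 met this rule, which is 6.93% of the Pax6 KD list and 5.63 Mb in all. The other 17140 Pax6 KD islands overlapped a control island and are called shared, and 20448 of 38007 control islands overlapped no Pax6 KD island and are called control-only. The control list held more islands than the Pax6 KD list, and KD-only islands were the smaller one-sided group. The control library's reads inside KD-only islands were not analysed here, so a KD-only island is one that was not listed in control cells, and the level of the mark there in control cells is unknown.

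Methylation of lysine 4 of histone H3 comes in several grades that tend to sit at different places. H3K4me1 covers enhancers and the flanks of promoters in broad stretches, H3K4me2 occurs at both enhancers and promoters, and H3K4me3 is concentrated at active promoters. Pax6 is a transcription factor with a paired domain and a homeodomain, and it is needed for the formation of the lens and for the expression of lens crystallins. Islands carrying H3K4me1 together with H3K4me2 are commonly read as regulatory regions, while H3K4me1 on its own is also found at weak or poised ones.

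Only 5 KD-only islands overlapped a Pax6 peak of control cells. Their sequence is shown as the 120 bp around each Pax6 summit (mm9, forward strand), because these are the members where Pax6 itself was mapped. Capitals mark a match on either strand to any of 8 short words searched, namely AP-1 (TGANTCA), Ets (CCGGAAG), Meis (TGACAG), TEAD (GGAATG), Runx (TGTGGTT), Sox (CCATTGT), E-box (CAGCTG) and a core of the paired domain site (TTCACGC). No word contains another.
Mfap3l intron, chr8:63122551-63122670: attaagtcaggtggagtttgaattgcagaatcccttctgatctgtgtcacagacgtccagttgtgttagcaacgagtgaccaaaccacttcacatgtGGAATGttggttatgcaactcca
between genes, nearest start Gm11016, chr13:102325486-102325605: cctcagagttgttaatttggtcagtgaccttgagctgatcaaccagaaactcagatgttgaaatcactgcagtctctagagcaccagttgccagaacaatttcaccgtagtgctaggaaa
Tspan15 intron, chr10:61680083-61680202: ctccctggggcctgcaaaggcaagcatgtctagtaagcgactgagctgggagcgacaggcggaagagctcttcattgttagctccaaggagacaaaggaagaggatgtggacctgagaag
Hip1 exon, chr5:135918447-135918566: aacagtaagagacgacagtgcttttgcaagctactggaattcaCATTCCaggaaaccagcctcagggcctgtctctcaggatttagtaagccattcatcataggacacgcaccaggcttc
Prrc2c intron, chr1:164659672-164659791: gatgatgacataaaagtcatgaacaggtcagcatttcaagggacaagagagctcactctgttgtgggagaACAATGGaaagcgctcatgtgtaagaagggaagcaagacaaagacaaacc
The windows of the Mfap3l and Hip1 islands held the TEAD word, that of the Prrc2c island held the Sox word, and none of the 5 held the paired domain word. In wider windows of 200 bp at all 504 Pax6 summits, the TEAD word was in 23.2%, the Sox word in 5.16% and the paired domain word in 4.37%. A missing word says only that these letters were not in the window.

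A second set shows the 200 bp around the H3K4me2 summit of the 3 KD-only islands with the strongest H3K4me2 peak that was listed in Pax6 KD cells and not in control cells, since in these islands both marks were listed in the Pax6 KD cells alone.
Tmeff2 intron, chr1:51209153-51209352: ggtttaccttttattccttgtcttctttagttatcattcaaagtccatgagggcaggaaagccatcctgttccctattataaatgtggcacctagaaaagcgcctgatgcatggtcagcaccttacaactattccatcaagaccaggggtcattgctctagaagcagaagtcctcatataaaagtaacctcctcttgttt
between genes, nearest start Bdnf, chr2:109453897-109454096: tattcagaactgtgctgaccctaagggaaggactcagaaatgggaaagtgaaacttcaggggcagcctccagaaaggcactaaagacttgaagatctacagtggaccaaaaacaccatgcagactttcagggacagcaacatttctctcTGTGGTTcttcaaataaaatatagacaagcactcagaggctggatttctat
Gmds intron, nearest start Foxc1, chr13:32069522-32069721: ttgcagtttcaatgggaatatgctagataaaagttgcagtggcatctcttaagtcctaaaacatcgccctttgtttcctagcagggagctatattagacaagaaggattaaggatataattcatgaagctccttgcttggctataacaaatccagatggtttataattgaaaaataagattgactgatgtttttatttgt
Of these, the window nearest to Bdnf held the Runx word and the other windows held none of the 8. The Runx word was in 4.70% of the windows at all H3K4me2 summits of Pax6 KD cells.

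KD-only islands were weaker than shared islands and slightly narrower. Their median width was 4200 bp, with a range of 200 to 29600 bp, against 4400 bp in shared islands. They held a median of 62 H3K4me1 ChIP reads (23 to 604) and 48 input reads (7 to 811). The middle of the distribution was thus a modest count of reads spread over several kilobases. Per kilobase of island, the median was 15.2 ChIP reads in KD-only and 18.3 in shared islands, while the median of input reads was 11.9 and 11.2 per kb. Fewer ChIP reads over slightly more input therefore separated the groups. The fold over scaled input, which the peak caller SICER computed from the ratio of both libraries, had a median of 2.0 in KD-only islands (1.18 to 8.45) and 2.65 in shared islands. The median false discovery rate (FDR) was 3.58e-07 in KD-only and 5.35e-14 in shared islands. These values belong to the lists that chose the members and are given as description.

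**Figure D1:**
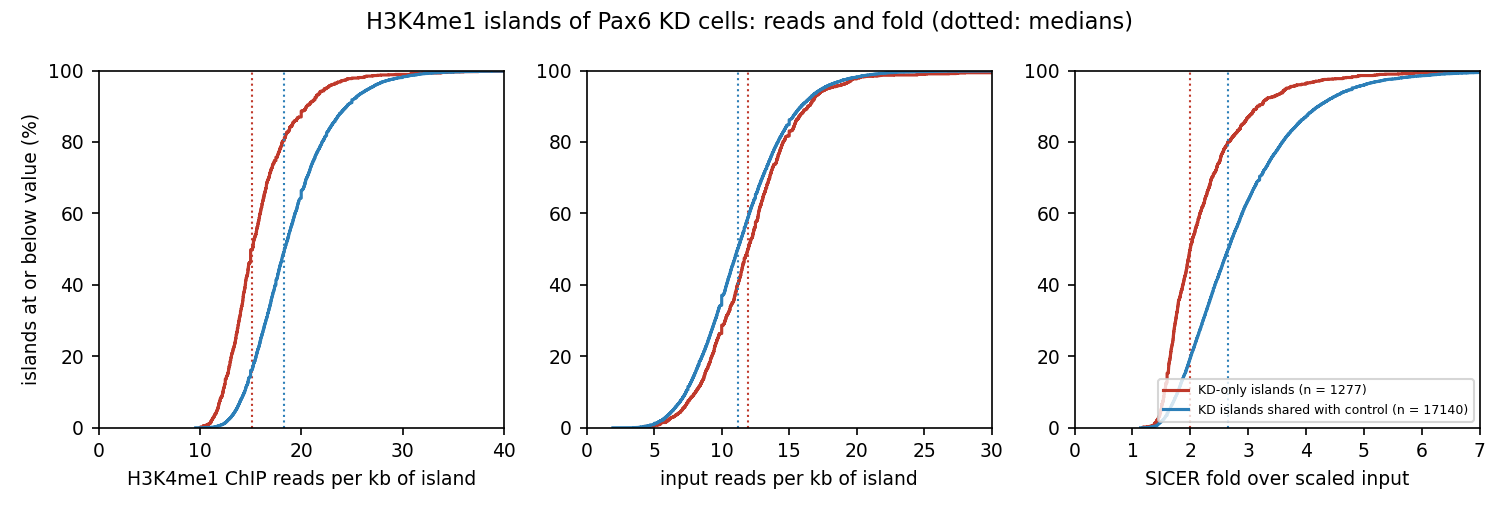
Cumulative share of islands (percent, y axis) against H3K4me1 ChIP reads per kb, input reads per kb and SICER fold (x axes) for 1277 KD-only (red) and 17140 shared (blue) islands of the Pax6 KD list, with dotted medians. KD-only islands lie to the left for ChIP reads (15.2 against 18.3 per kb) and fold (2.0 against 2.65), and slightly to the right for input (11.9 against 11.2 per kb).

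The share of islands that were KD-only fell along the fold. With Pax6 KD islands ordered by fold and split into 5 classes of equal size, it was 16.4% in the lowest, then 7.98%, 4.64% and 3.45%, and 2.23% in the highest. Even so, 45 KD-only islands (3.52%) had a fold of 4 or more, against 12.8% of shared islands. At the other end, 162 KD-only islands (12.7%) held more input than ChIP reads, against 3.54% of shared islands. SICER scaled the libraries by 1.60 input reads per ChIP read, so such an island can have a fold above 1.

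The most read-rich KD-only islands were of this kind. The island at chr10:57683001-57702600 covered Dux, a double homeobox gene that lies in a tandem repeat, and held 604 ChIP and 811 input reads with a fold of 1.19. The widest island, at chr17:13528201-13557800 over the predicted gene Gm9880, held 600 ChIP and 810 input reads. The island at chr8:56197001-56209200, 157 kb from the start of the neuronal membrane protein gene Gpm6a, held 390 ChIP and 527 input reads. Input in the 10 islands with the most ChIP reads lay between 16.3 and 43.2 reads per kb, all above the KD-only median of 11.9, and 9 of the 10 held more input than ChIP reads. The exception lay in an intron of Ak5, which encodes an adenylate kinase, with 184 ChIP and 148 input reads, a fold of 1.99 and an FDR of 6.31e-17. Only 1 of the 10 overlapped an H3K4me2 peak of Pax6 KD cells. The part of input in these islands was not tested.

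**Figure D2:**
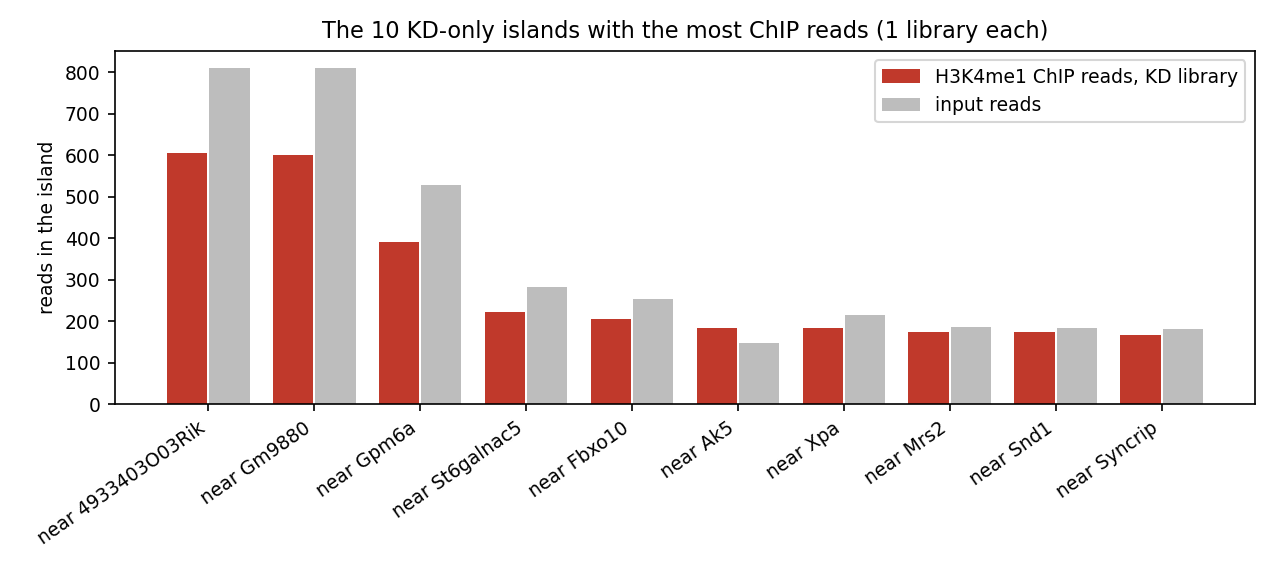
Reads (y axis) of the H3K4me1 ChIP library of Pax6 KD cells (red) and of input (grey) in the 10 KD-only islands with the most ChIP reads, named by the gene with the nearest start. In 9 of the 10 the input bar is the taller one, and the first island holds 604 ChIP and 811 input reads.

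The islands with the lowest FDR were different ones, of ordinary width and low input. The lowest was 3.20e-28, in an intron of Gse1 at chr8:123031601-123036800, with 72 ChIP and 22 input reads. Among the 5 islands with the lowest FDR, 3 others lay 1.38 kb from the start of Ecsit (56 ChIP and 14 input reads, fold 6.39), 22.8 kb from Fgfrl1, an FGF receptor-like gene (55 and 14 reads, fold 6.28), and 204 kb from Bcor, a transcriptional corepressor gene (49 and 11 reads, fold 7.12). Of these 5, 2 overlapped H3K4me2 of Pax6 KD cells, 3 of control cells and 1 of lens.

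H3K4me2, which the rule did not use, was rare in KD-only islands. An H3K4me2 peak of Pax6 KD cells overlapped 346 of the 1277 islands (27.1%, 95% Wilson interval 24.7 to 29.6), against 79.1% of all Pax6 KD islands and 83.0% of the shared ones (82.4 to 83.5). An H3K4me2 peak of control cells overlapped 379 (29.7%, 27.2 to 32.2), against a background of 83.2%. An H3K4me2 peak of newborn lens overlapped 286 (22.4%, 20.2 to 24.8), against 35.2%. Control-only islands were in between, with 64.5% for Pax6 KD, 71.0% for control and 34.1% for lens H3K4me2. The intervals of KD-only islands did not meet those of either other group. They cover counting error over regions only.

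**Figure D3:**
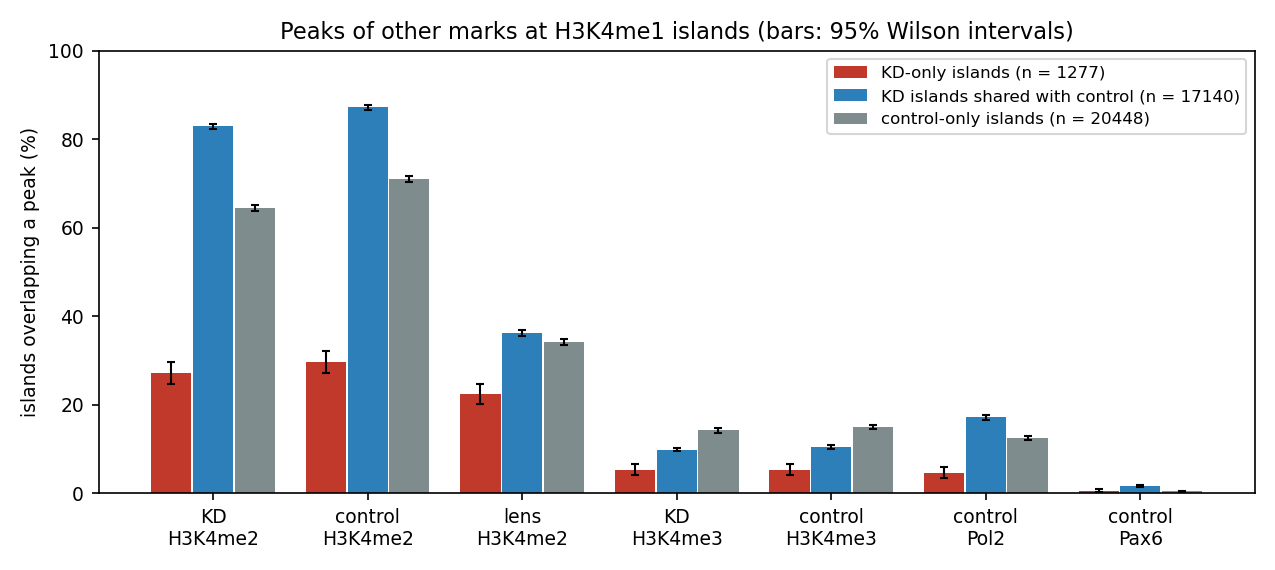
Share of islands that overlap a peak (percent, y axis) for each of 7 peak lists (x axis) in KD-only (red), shared (blue) and control-only (grey) islands; error bars are 95% Wilson intervals over regions. KD-only islands carry H3K4me2 of Pax6 KD cells in 27.1% and of control cells in 29.7%, below both other groups, and the gap is smaller for lens H3K4me2 (22.4% against 36.1% and 34.1%).

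The H3K4me2 that was present covered little of the islands. Peaks of Pax6 KD cells numbered 73.4 per Mb of KD-only island and covered 4.69% of their length, against 269 per Mb and 25.6% in shared islands. The strongest Pax6 KD peak of an island stood at a median percentile of 42.3 of its list by fold enrichment in KD-only islands and 61.2 in shared islands. Both the number and the median rank of H3K4me2 peaks were thus lower. The upper quartile of this percentile was alike, at 81.6 in KD-only and 80.8 in shared islands.

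The low share was also found within classes of width and within classes of fold, each taken alone. The classes were coarse and the top ones had no upper limit, so islands within a class need not be alike in strength. Among islands up to 2000 bp, H3K4me2 of Pax6 KD cells was at 28.6% of KD-only and 81.9% of shared islands, and among those over 4000 bp at 23.3% and 85.3%. At a fold under 1.5 the shares were 18.8% and 73.4%, between 1.5 and 2 they were 22.6% and 73.7%, and at a fold of 3 or more 34.1% and 88.4%. KD-only islands were below shared islands of the same class in each of 4 width and 5 fold classes, for Pax6 KD and for control H3K4me2 alike. Distance made little difference, since H3K4me2 of Pax6 KD cells was at 26.1% of the islands within 10 kb of a control island and at 28.5% of those farther away.

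**Figure D4:**
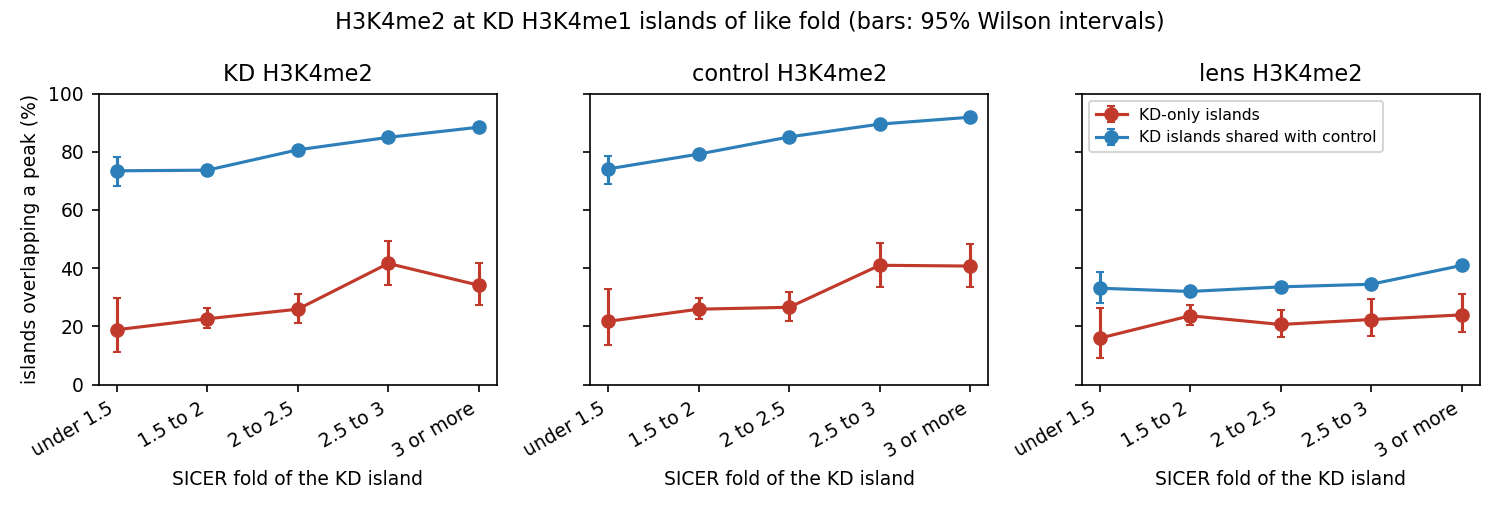
Share of Pax6 KD islands that overlap an H3K4me2 peak (percent, y axis) of Pax6 KD cells, control cells and lens, by class of SICER fold (x axis), for KD-only (red) and shared (blue) islands; error bars are 95% Wilson intervals. At a fold of 3 or more, H3K4me2 of Pax6 KD cells is at 34.1% of KD-only and 88.4% of shared islands.

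Neither αTN4 condition had an H3K4me2 peak in 844 KD-only islands (66.1%), against 15.2% of all Pax6 KD islands, and both had one in 292 (22.9%), against 77.5%. The status was thus the same in both conditions in 89.0% of KD-only islands and in 92.8% of all Pax6 KD islands. In 54 islands a peak was listed in Pax6 KD cells alone, and in 87 in control cells alone. H3K4me2 listed in Pax6 KD cells alone was therefore less frequent here than H3K4me2 listed in control cells alone. The corresponding background over all Pax6 KD islands was 1.56% with H3K4me2 in Pax6 KD cells alone and 5.67% in control cells alone. Among islands with H3K4me2 in one condition, Pax6 KD alone made up 38.3% (30.7 to 46.5) of KD-only islands, 19.6% (17.5 to 22.0) of shared and 19.5% (17.9 to 21.2) of control-only islands. The balance was thus nearer to even in KD-only islands, though still on the side of control cells.

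Counted by peak rather than by island, 70 of 413 Pax6 KD H3K4me2 peaks in KD-only islands (16.9%) overlapped no control peak, against 4.72% in shared islands and 7.34% in the whole list. In the other direction, 114 of 434 control peaks (26.3%) overlapped no Pax6 KD peak, against 16.1% and 17.5%. Of the peaks listed in one condition, those of Pax6 KD cells made up 38.0% (31.3 to 45.2) in KD-only islands. This share was 23.1% in shared islands, 24.2% in control-only islands and 29.4% (28.7 to 30.1) over the whole lists. All peaks listed in one condition in KD-only islands were in the weaker part of their list, at or below the 50th percentile of fold enrichment, as were 4820 of 4834 such Pax6 KD peaks over the whole list. Within this weaker part, 27.6% (22.4 to 33.4) of Pax6 KD peaks in KD-only islands had no control partner, against 9.02% (8.53 to 9.52) in shared islands, and for control peaks the shares were 40.6% (35 to 46.4) and 32.0% (31.2 to 32.9). Where both conditions had a peak, its percentile differed by a median of -0.17 (Pax6 KD minus control) and was higher in Pax6 KD cells in 145 of 292 islands, against a median of -1.69 in shared islands.

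The 10 islands with the strongest H3K4me2 in Pax6 KD cells alone lay 2.78 to 435 kb from the nearest start. The first was in an intron of Tmeff2, a transmembrane protein gene, at chr1:51208601-51212000, with 53 H3K4me1 ChIP and 44 input reads and an H3K4me2 fold of 7.14, which is the 48.0th percentile of the list. The second lay 59.5 kb from the start of Bdnf, a neurotrophin gene, at chr2:109451601-109455400, with 76 ChIP and 52 input reads and an H3K4me2 fold of 6.26. The third, at chr13:32064601-32070400 in an intron of Gmds, lay 166 kb from Foxc1, a forkhead factor gene of anterior eye development, with 83 ChIP and 64 input reads and an H3K4me2 fold of 6.20. The sequences at these 3 summits are printed above. The remaining 7 of the top 10 had H3K4me2 folds of 5.21 to 6.16, with Sntb1 as the nearest start of 2 of them and Fam135b, Arhgap29, Fam83c, Tsc22d2 and Ppm1k of the others. None of the 10 was at a promoter, 1 overlapped lens H3K4me2, and their H3K4me1 folds ran from 1.66 to 3.27.

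In the opposite direction, the strongest control H3K4me2 without a Pax6 KD peak was in the island at chr10:96978801-96982000 over an exon of Dcn, which encodes the matrix proteoglycan decorin, with a fold of 6.33. The next islands were in an intron of Trp53bp2 (6.21), 2.08 kb from 1200014J11Rik (6.21), 210 kb from the T-box factor gene Tbx18 (5.66) and 3.46 kb from Mn1 (5.64). None of these 5 had lens H3K4me2.

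Lens H3K4me2 was most frequent where both αTN4 conditions had H3K4me2. It was found at 132 of the 292 KD-only islands with H3K4me2 in both conditions (45.2%, 39.6 to 50.9), at 5 of 54 with Pax6 KD H3K4me2 alone (9.26%, 4.02 to 19.9), at 10 of 87 with control H3K4me2 alone (11.5%, 6.36 to 19.9) and at 139 of 844 with neither (16.5%, 14.1 to 19.1). In shared islands the corresponding values were 40.1%, 16.7%, 19.7% and 18.2%. H3K4me2 listed in a single αTN4 condition was thus seldom also listed in lens.

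Of the 10 KD-only islands with the strongest lens H3K4me2, 9 were at promoters and 8 carried H3K4me2 in both αTN4 conditions. The island of Nup214, a nuclear pore gene, at chr2:31830801-31833800 held 48 ChIP and 43 input reads, and its H3K4me2 folds were 39.0 in lens, 35.7 in Pax6 KD and 26.2 in control cells. Those of Cbx8, a Polycomb gene, were 32.9, 23.3 and 17.8, and those near Bmi1, another Polycomb gene, 31.6, 15.9 and 18.5. Folds of different lists are on different scales and are not compared. Within each list, the island near Entpd6 stood at the 84.8th percentile in Pax6 KD cells and the 19.1st in control cells, and the island at Adk, the adenosine kinase gene, at the 67.0th and 97.6th. A pair of these islands had lens H3K4me2 and none in αTN4 cells, at the promoters of Ppp1r16b (chr2:158494601-158499600, lens fold 32.1) and of Tnfrsf19, a TNF receptor family gene (chr14:61659201-61664000, lens fold 30.4).

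H3K4me3, Pol2 and Pax6 were found at few KD-only islands. H3K4me3 was at 67 islands in Pax6 KD cells (5.25%, background 9.54%) and at 66 in control cells (5.17%, background 10.1%), with 59 in both, 8 in Pax6 KD and 7 in control cells alone. Pol2 of control cells was at 58 (4.54%, background 16.2%). Pax6 was at 5 (0.392%, 0.167 to 0.913, background 1.51%). The Pax6 share of control-only islands was alike, at 0.406% (0.328 to 0.503), so a low share was not particular to KD-only islands. Any of these marks was at 98 islands (7.67%, 6.34 to 9.26), against 23.4% of shared islands. No peak of any of the 7 lists overlapped 701 KD-only islands (54.9%, 52.2 to 57.6), against 9.31% of shared and 23.7% of control-only islands. H3K4me1 was thus the only one of the mapped marks listed at most KD-only islands.

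The 5 islands with a Pax6 peak were no exception for H3K4me2, since none overlapped a peak of either αTN4 condition, and the nearest Pax6 KD peak was 3.43 to 42.9 kb away. The island in an intron of Mfap3l (chr8:63121201-63124600) held 51 ChIP and 23 input reads with a fold of 3.54, and its Pax6 fold of 8.33 was the 75.6th percentile of the Pax6 list. The island in an intron of Tspan15, a tetraspanin gene (chr10:61677601-61681400), held 58 and 33 reads with a Pax6 fold of 6.84. The island between genes at chr13:102321401-102326800 held 63 and 49 reads with a Pax6 fold of 7.26. In the islands of Hip1, an endocytic adaptor gene (chr5:135916601-135921000), and Prrc2c (chr1:164658401-164662600), the Pax6 folds of 4.55 and 4.56 were among the lowest of the list, at the 4.17th and 4.66th percentile. Lens H3K4me2 overlapped the islands of Mfap3l, Tspan15 and Prrc2c, with folds of 4.48, 17.4 and 8.36.

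Promoters held a smaller share of KD-only than of shared islands. Of the 1277, 194 (15.2%, 13.3 to 17.3) lay 2 kb or less from a protein-coding transcript's start, against 21.9% of all Pax6 KD islands and 22.5% of shared ones (21.8 to 23.1). A further 190 (14.9%) overlapped an exon, 404 (31.6%) lay in introns and 489 (38.3%) between genes, against 14.8%, 27.1% and 36.2% of all Pax6 KD islands. The median distance to a start was 23.9 kb against 18.0 kb in shared islands. The promoter islands had the most H3K4me2, with a Pax6 KD peak at 118 of 194 (60.8%, 53.8 to 67.4) against 93.7% of shared promoter islands. H3K4me3 of Pax6 KD cells was at 65 of them (33.5%, 27.2 to 40.4), against 39.6% (38.1 to 41.2), with overlapping intervals. In introns, H3K4me2 of Pax6 KD cells was at 18.6% of KD-only and 77.3% of shared islands, and between genes at 24.3% and 82.6%.

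The gap between a KD-only island and the nearest control island had a median of 7200 bp. Within 10 kb of a control island were 762 (59.7%) and within 50 kb 1172 (91.8%), while 68 were within 600 bp, the gap over which SICER joins windows into one island. At the edge of the rule, 5 KD-only islands touched a control island without overlap. Among them were an island in an intron of Cpt1a, the carnitine palmitoyltransferase of fatty acid oxidation (chr19:3338001-3346800, 115 ChIP and 64 input reads), one 6.71 kb from Rnd1 (71 and 60 reads) and one over an exon of Sgce (70 and 67 reads). Just outside the rule, 11 Pax6 KD islands overlapped control islands by 200 bp, such as those in an intron of Hip1 (91 ChIP and 52 input reads), near Ccdc93 (65 and 56) and at the promoter of Oas1e (65 and 44). The reads of the islands on both sides of this edge overlapped.

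**Figure D5:**
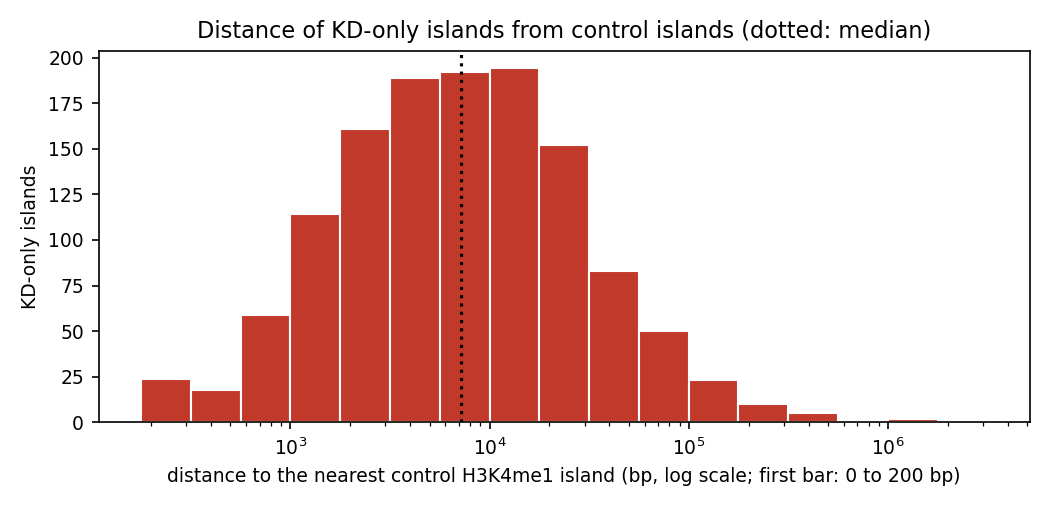
Number of KD-only islands (y axis) by distance to the nearest control H3K4me1 island (bp, log x axis, first bar 0 to 200 bp), with the median of 7200 bp dotted. Of the 1277 islands, 762 lie within 10 kb.

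Of the KD-only islands, 311 (24.4%) lay within 50 kb of another, a count with no reference value here. The densest 2 Mb bin was at 96 to 98 Mb of chromosome 9, where 14 of 58 Pax6 KD islands were KD-only, followed by 24 to 26 Mb of chromosome 19 with 13 of 62, against 6.93% over the whole list. Input in the islands of the chromosome 9 bin was 17.4 reads per kb in the Pax6 KD list and 22.1 in the control list, against medians of 10.3 and 12.1 over bins. High input was thus found there in both lists, and its part in these counts was not tested. By chromosome, the KD-only share was highest on the X (12 of 74, 16.2%, 9.53 to 26.2) and on chromosome 9 (58 of 552, 10.5%, 8.22 to 13.3), and lowest on chromosome 8 (15 of 542, 2.77%, 1.68 to 4.52). Input in the Pax6 KD islands was 9.55 reads per kb on the X, 22.3 on chromosome 9 and 7.89 on chromosome 8. Its part in these shares was not tested.

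A KD-only island lay in the body of 679 of 22238 protein-coding genes, and in or within 10 kb of 940 (4.23%). Longer genes held more of them, from 1.93% of genes under 20 kb to 17.1% of genes of 200 kb or more. Pip5k1b, a phosphoinositide kinase gene, had 5, each in chr19:24479801-24621200, with 55, 65, 89, 108 and 133 ChIP reads against 49, 65, 76, 116 and 137 input reads. Its folds of 1.49 to 1.87 were all below the KD-only median, none of the 5 had αTN4 H3K4me2, and it lies in the dense bin of chromosome 19. Genes with 4 were Lyn (a Src family kinase), Thada, Acoxl (an acyl-CoA oxidase-like gene), Slc24a3 (a sodium, potassium and calcium exchanger), Dennd1a, Clstn2 (a calsyntenin) and Arfip1, whose annotated model spans 1391 kb. In all, 18 genes had 3 or more, and among those with 3 were Cbfa2t2 and Tspan5. Over the 10 genes named here, 6 of 39 islands overlapped H3K4me2 of Pax6 KD cells, 7 of control cells and 10 of lens. Among those with all of them were the promoter islands within the Arfip1 model, whose nearest starts were those of Arfip1 and Tigd4.

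Of 312 genes in 12 lists of lens, signalling, matrix and chromatin genes, 22 (7.05%) had a KD-only island within 10 kb, against 4.23% of all protein-coding genes. With each island given to its nearest gene only, the shares were 10.9% and 4.73%. The median gene length of a list ran from 6.12 to 114 kb, against 15.4 kb over all genes, and no test was made. Notch pathway genes had 4 of 23 (17.4%, 6.98 to 37.1), namely Notch2 (a receptor), Rbpj (the DNA-binding factor of the pathway) and its coactivators Maml2 and Maml3. These 4 genes were 89.4 to 417 kb long. Among all genes, 6.65% of those of 50 to 100 kb had a KD-only island within 10 kb. The share was 12.0% for 100 to 200 kb and 17.1% for 200 kb or more. The Maml2 island (chr9:13489801-13494200) held 62 ChIP and 29 input reads with a fold of 3.42 and H3K4me2 in both conditions. The Rbpj island held 78 and 84 reads with a fold of 1.48 and no H3K4me2. Collagen and laminin genes had 4 of 33 (12.1%, 4.82 to 27.3), namely Col14a1, Col4a4, Col18a1 and Lama2, which were 114 to 636 kb long. The Col18a1 island (54 and 26 reads, fold 3.32) carried H3K4me2 in both conditions, as did that of Lama2 (52 and 34 reads, fold 2.44).

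FGF pathway genes had 3 of 23 (13.0%, 4.54 to 32.1). They were Fgf2, the feedback inhibitor Spred1, and Fgfr2, whose model in this annotation is so long that islands near other starts fell within it. The Fgf2 island (74 and 58 reads) overlapped H3K4me2 of control cells alone. Wnt pathway genes had 3 of 40 (7.5%, 2.58 to 19.9), with the receptor gene Fzd6, the ligand gene Wnt2b and the transcription factor gene Tcf7l2. The Tcf7l2 island had 49 ChIP and 20 input reads and a fold of 3.91, the highest among the listed genes. The Wnt2b island had H3K4me2 in Pax6 KD cells alone (fold 3.44), as had that of the BMP receptor gene Bmpr1b (4.17), which with Bmpr1a made 2 of 34 TGFβ and BMP pathway genes.

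Crystallin and fibre genes had 2 of 30 (6.67%, 1.85 to 21.3), and no crystallin gene was among them. They were Dnase2b (the nuclease that degrades nuclear DNA of lens fibres) and Tdrd7 (an RNA granule protein linked to cataract). The Dnase2b model spans 192 kb in this annotation, and the nearest starts to its islands were those of Ssx2ip and Rpf1. Lens transcription factors had 2 of 25 (8.0%, 2.22 to 25), among them Zeb2. Both intervals include the 4.23% of all protein-coding genes. The Zeb2 island (chr2:44945001-44948200) held 66 ChIP and 34 input reads with a fold of 3.10, and overlapped H3K4me2 of control cells and of lens. Zeb2 was also the 1 of 26 epithelial and mesenchymal state genes. AP-1 and Ets family genes had 1 of 28, Etv6, and the genes named as Pax6 responsive in the study, which were chosen on this cell line, 1 of 10, Tshz2. Neural and retinal genes had 0 of 29 and enzymes of H3K4 methylation 0 of 20. With lists of this size, 0 of 29 leaves a share of up to 11.7% within the 95% interval.

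In base composition, KD-only islands had a median GC content of 44.0% and 9.17 CpG per kb, against 45.7% and 10.3 in shared islands. Among 354 windows of 200 bp at H3K4me2 summits of Pax6 KD cells in KD-only islands, the AP-1 word was in 12.1% (9.14 to 16.0), against 8.34% (7.99 to 8.71) in shared islands, 10.6% (10.1 to 11.1) in control-only islands and 8.34% of all Pax6 KD H3K4me2 summits. The Sox word was in 0.847% (0.289 to 2.46), or 3 windows, against 3.0% (2.78 to 3.23). These were the only words of the 8 whose interval in KD-only islands lay apart from that in shared islands, and for AP-1 it included the control-only share. The paired domain word was in 0.565% of KD-only and 0.477% of shared windows, and in 4.37% of all Pax6 summits. TEAD (15.3% against 12.5%), Meis (12.4% against 15.5%), Runx (6.50% against 5.12%), E-box (11.0% against 12.1%) and Ets (0.847% against 0.786%) had overlapping intervals.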

How the data were processed

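ChIP-seq reads were aligned to mm9 with Bowtie by the authors, who called H3K4me1 islands with SICER (window 200 bp, gap 600 bp, FDR 0.001) and the other peaks with MACS2. SICER lists hold, as deposited, the count of ChIP reads and of input reads per island, a p-value, an FDR and a fold, which is the ratio to input after scaling. MACS2 lists hold, as deposited, a fold and the −log10 of p and q. The control library of SICER is not named in the lists and was taken as input. MACS2 lists do not give library depth. 1 antibody field of the labels is swapped between Pax6 and Pol2, and samples were assigned by title. Names of some peaks speak of replicates, which may have been pooled.

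Overlap means at least 1 bp. Folds and percentiles were used within 1 list. Genes and starts were those of GENCODE vM1 (22238 protein-coding genes), on mm9. Island ends were read as inclusive. Shares have 95% Wilson intervals (SciPy 1.17.1, pandas 2.3.3, Python 3.11.15). Overlap, gaps between islands and Wilson intervals were tested on simulated data, and the classes of place, width and fold were not. The members and gene lists were chosen with earlier results of these data known. Of 322 listed genes, 312 were matched by symbol. Named islands were those with the most reads, a Pax6 peak, the lowest FDR, the greatest width, the strongest H3K4me2 in 1 condition or in lens, the edge of the rule, and genes with the most islands. The comparison within fold classes, by gap and by peak strength was added after seeing the data. RNA-seq was not analysed here, so the fall of Pax6 itself was not checked. Some islands that met the rule for named islands or genes are not reported here by name.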

Additional observations from a re-analysis of the deposited data

How the results depend on the processing

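With islands at an FDR of at most 1e-06, 693 were KD-only, of which 32.0% had Pax6 KD and 33.9% control H3K4me2. At 1e-10 these were 298, 34.2% and 37.2%. With H3K4me2 peaks of a −log10 q of at least 5, the shares were 23.0% and 25%. Shared islands had 85.1% and 89.1%, 88.2% and 91.8%, and 78.7% and 82.9% under these settings. The promoter share of KD-only islands was 10.7% within 1 kb and 22.5% with transcripts of every biotype. H3K4me3, Pol2 or Pax6 lay within 1 kb of 9.79% of them. Shared islands are not given under these settings. These shares therefore cannot be set against the shared or background shares given above for the main settings. With each island given to its nearest gene only, 10.9% of listed and 4.73% of all genes had one, and in gene bodies 3.05% of all genes. Counting control islands at an FDR of at most 1e-06 only gave 1820 KD-only islands. Leaving out islands under a fold of 1.5, an alternative added after seeing the data, gave 1208 islands and 27.6% with Pax6 KD H3K4me2. No paired analysis was possible because each condition has 1 list per mark, which also leaves no replicate to leave out. Depth of the H3K4me2 libraries is unknown, so a missing peak is no evidence that the mark is absent.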
